A study of Homo sapiens with 9 samples.

Results

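MCF-10A cells expressing the ERK2 mutant D319N were compared directly with MCF-10A cells expressing the ERK2 mutant Y261A, 3 arrays against 3, which made up 6 of the 9 arrays of the series. The arrays of each group were taken by their titles. MCF-10A is an immortalised, non-tumorigenic human breast epithelial cell line, and it was cultured here in a medium holding epidermal growth factor, insulin, hydrocortisone, cholera toxin and horse serum. In every group a Tet-on system was induced with doxycycline and total RNA was taken after 7 days of growth. One group expressed ERK2 carrying D319N, the other expressed ERK2 carrying Y261A, and the remaining 3 arrays came from cells with the vector control under the same doxycycline treatment. A group expressing unmutated ERK2 was not analysed here. The labels describe no removal of the cells' own ERK2 and do not say whether a line was 1 clone or a pool. The design text calls the 3 samples of a condition individual replicates without saying that they were separate cultures, so p-values cover only the scatter among these samples, which may be technical.

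ERK2 is the last kinase of the RAS, RAF, MEK and ERK cascade, and it holds its partners through surfaces that lie away from its active site. The common docking domain, changed by D319N, binds the D motif found in the MEK kinases that activate ERK, the dual-specificity phosphatases that inactivate it and the RSK kinases that it activates. In Drosophila the matching residue is the one changed in the Sevenmaker gain-of-function allele of rolled. The DEF pocket, changed by Y261A, binds the DEF motif of substrates such as FOS family proteins, EGR1 and MYC. In breast epithelial cells, lasting ERK activity is known for driving the epithelial to mesenchymal transition (EMT), in which junction proteins are lost and fibronectin, N-cadherin and vimentin are gained. The comparison therefore sets a kinase with a changed common docking domain and an unmutated DEF pocket beside one with the opposite change.

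Signals were log2 values from robust multi-array average (RMA) normalisation, in which a difference of 1 is a 2-fold difference in fluorescence. Of 22411 genes tested, 17154 were protein-coding. Array medians ran from 6.06 to 6.13 in D319N and from 6.12 to 6.19 in Y261A, and the arrays correlated at 0.9957 to 0.9977 within D319N, 0.9946 to 0.9982 within Y261A and 0.981 to 0.9936 between the mutants. The median SD of a gene over 3 arrays was 0.067 in D319N, 0.077 in Y261A and 0.036 in the vector group. Deviations from the group means did not follow replicate numbers: the D319N and Y261A arrays numbered 1, 2 and 3 correlated at 0.21, -0.40 and -0.45, while D319N replicate 2 and Y261A replicate 3 correlated at 0.60. Those 2 arrays, called the correlated pair below, also had the highest median of their group, and the counts are given without them too. All 8 breast epithelial markers measured (KRT5, KRT14, KRT18, EGFR, CDH3, ITGB4, SFN and S100A2) lay above the mean of the array's background probe sets, 4.85, in every group.

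D319N and Y261A cells differed in 1933 genes, 1290 of them higher and 643 lower in D319N (limma on the 6 arrays, Benjamini-Hochberg adjusted p under 0.05), which was 8.63% of the genes tested, 5.76% higher and 2.87% lower. At least 2-fold differences were found in 147 of these genes, 0.656% of those tested, and 135 of the 147 were higher in D319N. The signals of the 3 D319N arrays did not overlap those of the 3 Y261A arrays in 6308 genes (28.1%, with 15.5% higher and 12.6% lower), and all 1933 genes were among them. Of the 1933, 424 differed by less than 1.2-fold and 65 had both means under the background level. The share of differences that were higher in D319N was 66.7%, 78.9% after centring each array on its median and 55.1% after quantile normalisation, while the median difference over all genes was -0.024. The number of genes depended on single arrays: it was 444 without Y261A replicate 2, 517 without D319N replicate 1, 690 without Y261A replicate 1, 815 without D319N replicate 3, 1269 without Y261A replicate 3 and 1956 without D319N replicate 2. Without the correlated pair it was 3530. That pair was picked by its deviations in these same data, so leaving it out can lower the scatter within groups. Counts without the pair are therefore no independent measure of stability. A gene past the threshold is termed a call, and where a call ended without several arrays, leaving out any one of them alone ended it. Calls lost in a test without moderation or with the replicate number as a block are not listed gene by gene. Their counts are in the closing section. Counts of list members below are to be read beside the shares of all genes, 5.76% higher and 2.87% lower.

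**Figure D1:**
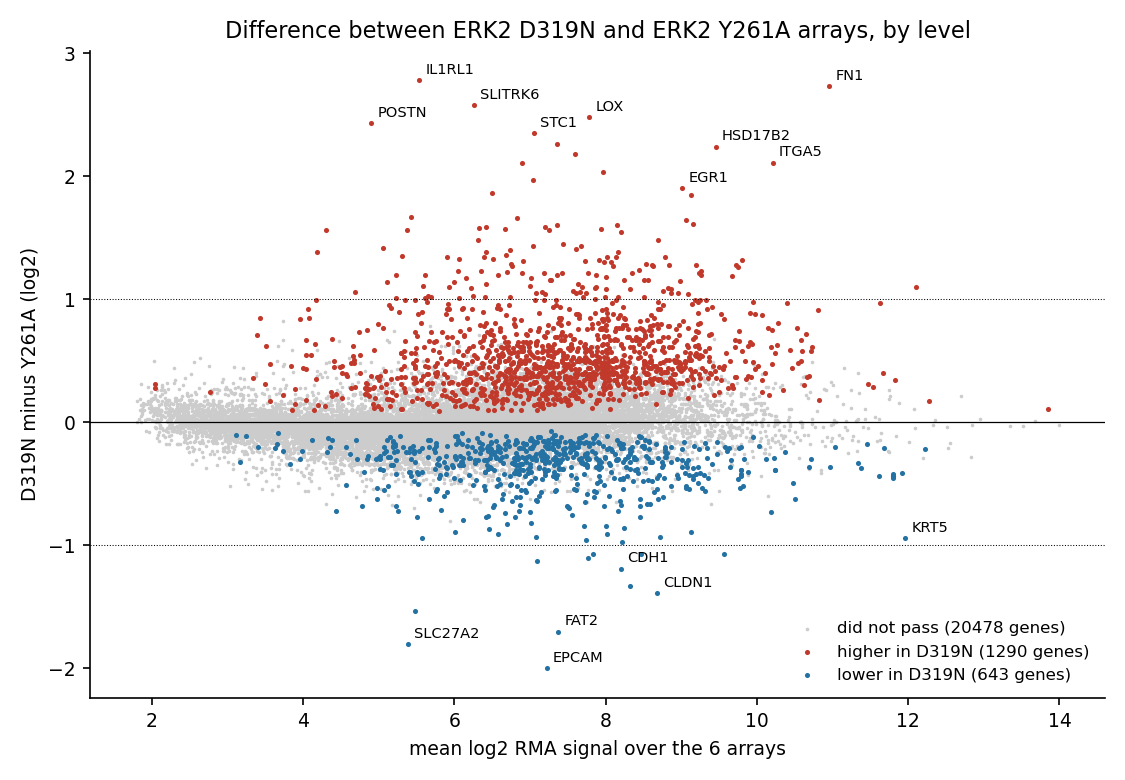
Difference between the D319N and Y261A means (vertical axis, log2) against the mean log2 RMA signal over the 6 arrays (horizontal axis) for the 22411 genes, with dotted lines at 2-fold. The genes with the widest spread lie above the zero line: 135 genes were at least 2-fold higher in D319N and 12 at least 2-fold lower.

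Transcripts of the fibronectin matrix and of its receptor were among those that separated the mutants most. FN1, which encodes fibronectin, gave signals of 12.33, 12.32 and 12.29 on the D319N arrays and 9.65, 9.60 and 9.52 on the Y261A arrays. Every D319N array lay far above every Y261A array, and the difference was 2.73 ± 0.04 (SE, adjusted p = 0.00023), a 6.63-fold higher level. The vector arrays averaged 7.41 ± 0.08, so that the Y261A level lay between the vector and the D319N levels. Here and below, the ± of a vector mean is the SD over its 3 arrays and not an SE. ITGA5, which encodes the alpha chain of the main fibronectin receptor, read 11.28, 11.15 and 11.36 on the D319N arrays and 9.23, 9.19 and 9.06 on the Y261A arrays, with a difference of 2.11 ± 0.07 (SE, adjusted p = 0.00104) and no overlap. Its vector level was 8.73 ± 0.06, below the Y261A arrays but nearer to them than to the D319N arrays.

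Of the integrin subunits, 9 of 19 were higher and 0 lower in D319N (5 to 9 higher with 1 array left out, lowest without D319N replicate 1 or Y261A replicate 2, and 10 without the correlated pair), against 5.76% of all genes, and the median difference was 0.22 beside -0.024 for all genes. Besides ITGA5, ITGAV (1.28, adjusted p = 0.00154), ITGA2 (1.04, adjusted p = 0.00414) and ITGB1 (0.61, adjusted p = 0.00326) were higher; ITGB1 is the beta chain that pairs with ITGA5, ITGAV is an alpha chain of further fibronectin receptors and ITGA2 belongs to a collagen receptor. ITGB1 was represented by 3 rows: the brightest differed by 0.61, while the dimmer rows differed by -0.12 and 0.03, and the call was lost when the rows were averaged. The laminin receptor subunits ITGA6 and ITGB4 differed by -0.18 and -0.04 and did not pass.

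Among interstitial and matricellular genes, 10 of 31 were higher and 1 lower in D319N (9 to 11 higher with 1 array left out, and 12 without the correlated pair), and the median difference was 0.03. POSTN, which encodes the matricellular protein periostin, read 6.15, 6.12 and 6.10 on the D319N arrays and 3.71, 3.77 and 3.60 on the Y261A arrays, giving a difference of 2.43 ± 0.05 (SE, adjusted p = 0.000306). All 3 Y261A signals lay below the background mean of 4.85 and all 3 D319N signals above it. CCDC80, a secreted matrix-binding protein, differed by 1.97 ± 0.07 (SE, adjusted p = 0.00108), and TGFBI, a TGF-beta-induced adhesion protein, by 0.97 ± 0.04 (SE, adjusted p = 0.00142). CCN1, a matricellular target of YAP and SRF, differed by 0.76 ± 0.07 (SE, adjusted p = 0.00781). The brighter of the rows for DCN, which encodes the proteoglycan decorin, differed by 1.86 ± 0.09 (SE, adjusted p = 0.00161), while its dimmer row, under the background level, differed by -0.14. The fibrillar collagen genes COL1A1 and COL1A2 did not pass, with differences of 0.00 (adjusted p = 1) and -0.14 (adjusted p = 0.267).

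Enzymes that modify and crosslink the matrix also differed. LOX, the lysyl oxidase that crosslinks collagen and elastin, read 9.11, 8.96 and 9.01 on the D319N arrays and 6.61, 6.62 and 6.42 on the Y261A arrays, a 5.57-fold higher level in D319N with no overlap (difference 2.48 ± 0.07 SE, adjusted p = 0.000663). In this list, 7 of 15 were higher and 1 lower in D319N (4 to 7 higher with 1 array left out, lowest without D319N replicate 1 or Y261A replicate 1, 2 or 3, and 6 without the correlated pair). PLOD2, a lysyl hydroxylase, differed by 0.99 ± 0.07 (SE, adjusted p = 0.00443), TGM2, a transglutaminase, by 0.61 ± 0.05 (SE, adjusted p = 0.00523), and LOXL2, a lysyl oxidase homologue, by 0.59 ± 0.05 (SE, adjusted p = 0.00606). Of the basement membrane and hemidesmosome genes, 6 of 17 were higher and 0 lower in D319N (1 to 8 higher with 1 array left out, lowest without D319N replicate 1 or Y261A replicate 2, and 7 without the correlated pair). The laminin chain LAMA1 differed by 0.32 ± 0.02 (SE, adjusted p = 0.00403), LAMC1 by 0.56 ± 0.07 (SE, adjusted p = 0.0168), and the type IV collagen chains COL4A1 and COL4A2 by 0.26 ± 0.03 (SE, adjusted p = 0.00911) and 0.22 ± 0.03 (SE, adjusted p = 0.0121). The LAMC1 call ended without D319N replicate 1 or 3 or Y261A replicate 1 or 2 (adjusted p up to 0.0885). The COL4A1 call ended without D319N replicate 1 or Y261A replicate 2 (adjusted p up to 0.0555). The COL4A2 call ended without D319N replicate 1 or Y261A replicate 1 or 2 (adjusted p up to 0.0668). The COL4A2 call also ended with a raised spread for tied genes (adjusted p = 0.113).

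Among matrix proteases and their inhibitors, 9 of 23 were higher and 0 lower in D319N (6 to 10 higher with 1 array left out, and 10 without the correlated pair), with a median difference of 0.08. SERPINE2, which encodes protease nexin-1, an inhibitor of thrombin and urokinase, read 7.75, 7.62 and 7.61 on the D319N arrays and 6.05, 6.01 and 5.95 on the Y261A arrays. The groups were well apart, and the difference was 1.66 ± 0.05 (SE, adjusted p = 0.000663). TIMP1, an inhibitor of metalloproteinases, differed by 1.28 ± 0.04 (SE, adjusted p = 0.000757), the lysosomal protease gene CTSB by 1.28 ± 0.05 (SE, adjusted p = 0.00104) and the serpin gene SERPINB5, known as maspin, by 0.50 ± 0.02 (SE, adjusted p = 0.00154). These 4 calls held with any 1 array left out. The collagenase and stromelysin genes MMP1 and MMP3 differed by -0.03 (adjusted p = 0.343) and 0.00 (adjusted p = 1) and did not pass.

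IL1RL1, SLITRK6 and POSTN were 3 of the 5 genes with the largest higher levels in D319N, and their promoters are shown because each holds the AP-1 motif TGANTCA, the kind of site that FOS and JUN family dimers bind. The sequences, from RefSeq on build GRCh38.p14, run around the annotated gene start over 300 bases, 5′ to 3′ on the gene's strand, with the motif in capitals.
IL1RL1 promoter, chr2:102337007-102337306, plus strand: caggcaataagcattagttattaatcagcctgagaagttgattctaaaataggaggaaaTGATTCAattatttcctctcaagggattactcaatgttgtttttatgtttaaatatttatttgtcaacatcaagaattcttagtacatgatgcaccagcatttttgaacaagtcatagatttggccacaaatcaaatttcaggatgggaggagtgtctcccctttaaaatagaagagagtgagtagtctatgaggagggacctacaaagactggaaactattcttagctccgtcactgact
SLITRK6 promoter, chr13:85799370-85799669, minus strand: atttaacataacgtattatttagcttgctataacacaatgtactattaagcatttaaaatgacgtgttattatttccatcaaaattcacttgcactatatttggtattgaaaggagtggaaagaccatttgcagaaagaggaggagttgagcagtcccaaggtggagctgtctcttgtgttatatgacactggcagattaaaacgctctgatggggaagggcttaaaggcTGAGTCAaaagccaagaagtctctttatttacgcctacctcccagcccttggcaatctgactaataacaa
POSTN promoter, chr13:37598719-37599018, minus strand: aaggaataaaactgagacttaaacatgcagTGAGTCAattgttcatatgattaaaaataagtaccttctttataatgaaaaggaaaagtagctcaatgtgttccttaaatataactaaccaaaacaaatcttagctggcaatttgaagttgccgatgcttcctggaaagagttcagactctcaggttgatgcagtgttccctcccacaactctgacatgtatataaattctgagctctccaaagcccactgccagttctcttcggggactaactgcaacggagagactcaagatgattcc
Of the 15 genes with the largest higher levels, 11 had a promoter in the RefSeq table, and 4 of the 11 held TGANTCA on either strand (the 3 shown and ITGA5). It was found in 0 of the 10 promoters matched among the 15 largest lower levels and in 6.15% of the 15374 promoters of tested genes. Over all genes higher in D319N with a promoter, 7.44% held it, and over all genes lower in D319N, 4.48%. A match describes letters in the window and not a bound site.

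IL1RL1, the receptor for interleukin 33, had the largest difference of all called genes. It read 6.91, 6.85 and 7.00 on the D319N arrays and 4.18, 4.18 and 4.07 on the Y261A arrays, a difference of 2.78 ± 0.05 (SE, adjusted p = 0.000306). The Y261A signals were below the background mean of 4.85 and the D319N signals well above it. SLITRK6, a transmembrane protein known from neurite outgrowth, read 7.52, 7.43 and 7.71 on the D319N arrays and 5.13, 5.13 and 4.65 on the Y261A arrays, with a difference of 2.58 ± 0.16 (SE, adjusted p = 0.0032) and no overlap. STC1, which encodes the secreted glycoprotein stanniocalcin 1, differed by 2.35 ± 0.13 (SE, adjusted p = 0.00231), and ATP2B4, a plasma membrane calcium pump, by 2.03 ± 0.08 (SE, adjusted p = 0.00145). These calls held with any 1 array left out.

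Transcription factors of EMT differed gene by gene. SNAI2, which encodes the E-cadherin repressor SLUG, read 9.52, 9.31 and 9.54 on the D319N arrays and 8.16, 8.08 and 8.10 on the Y261A arrays, a difference of 1.34 ± 0.07 (SE, adjusted p = 0.00218). ZEB1, another repressor of epithelial genes, read 6.45, 6.32 and 6.41 on the D319N arrays and 5.49, 5.54 and 5.39 on the Y261A arrays, a difference of 0.92 ± 0.05 (SE, adjusted p = 0.00284). In both genes the lowest D319N array stood well clear of the highest Y261A array, and the vector means of 7.97 ± 0.06 and 5.32 ± 0.10 were close to Y261A. SOX9 and TWIST1 were also higher, by 0.71 ± 0.09 (SE, adjusted p = 0.0146) and 0.51 ± 0.07 (SE, adjusted p = 0.0181). In contrast SNAI1, the gene for SNAIL, differed by -0.09 ± 0.11 (SE, adjusted p = 0.586) and did not pass. Of the 14 EMT factors measured, 4 were higher and 0 lower (2 to 4 higher with 1 array left out, lowest without D319N replicate 1 or Y261A replicate 1, 2 or 3, and 3 without the correlated pair). The SOX9 call ended without D319N replicate 1 or Y261A replicate 1, 2 or 3 (adjusted p up to 0.0652). The TWIST1 call ended without D319N replicate 1 or 3 or Y261A replicate 1, 2 or 3 (adjusted p up to 0.0785). The SOX9 call also ended without the correlated pair (adjusted p = 0.0623). ZEB2 had no row under that symbol alone and was not analysed here.

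Mesenchymal genes were the list with the largest share of higher members: 15 of 25 were higher and 0 lower in D319N (12 to 16 higher with 1 array left out, and 15 without the correlated pair), and the median difference was 0.59. CDH2, which encodes N-cadherin, read 7.92, 7.73 and 7.89 on the D319N arrays and 6.92, 6.91 and 6.73 on the Y261A arrays, a 1.99-fold higher level in D319N (difference 0.99 ± 0.08 SE, adjusted p = 0.00516). VIM, which encodes the intermediate filament vimentin, read 10.69, 10.58 and 10.77 on the D319N arrays and 9.98, 9.82 and 9.80 on the Y261A arrays, a difference of 0.81 ± 0.07 (SE, adjusted p = 0.00649). In neither gene did the arrays of the mutants overlap, and the Y261A means were close to the vector means of 6.90 ± 0.05 and 10.01 ± 0.02. NT5E, the ectonucleotidase CD73, differed by 1.26 ± 0.03 (SE, adjusted p = 0.000623), AXL, a receptor tyrosine kinase, by 1.23 ± 0.10 (SE, adjusted p = 0.00555), and NRP1, a co-receptor of semaphorins and VEGF, by 1.60 ± 0.10 (SE, adjusted p = 0.00341). The mesenchymal genes TAGLN and CDH11 differed by -0.01 (adjusted p = 0.717) and -0.01 (adjusted p = 0.766) and did not pass.

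**Figure D2:**
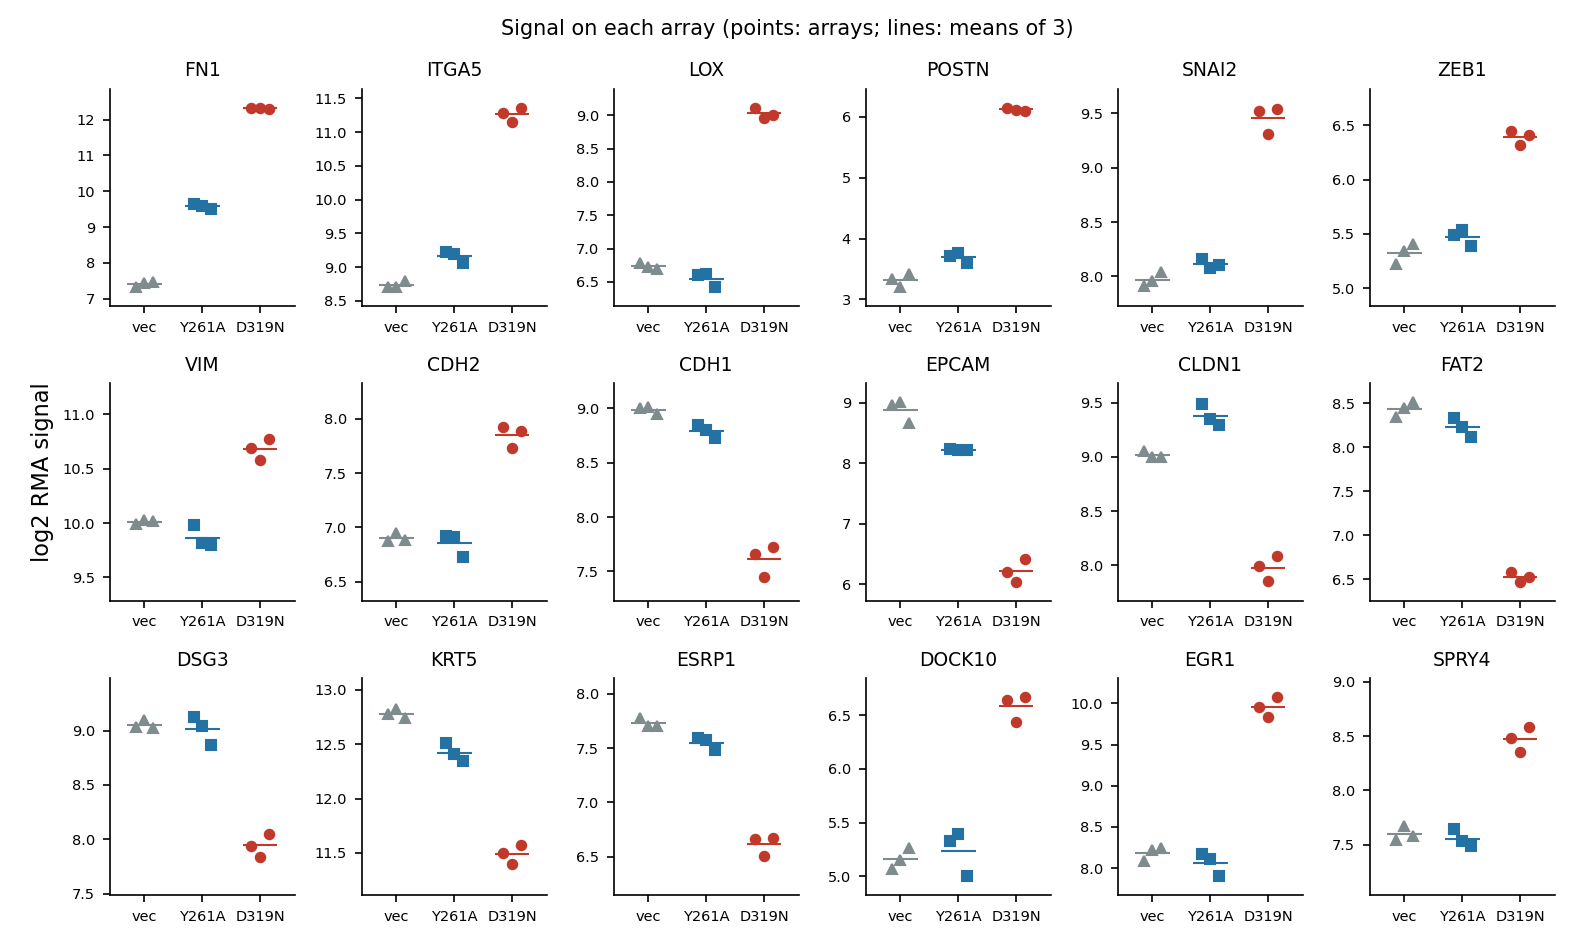
Log2 RMA signal on each of the 9 arrays for 18 genes, with vector arrays as triangles, Y261A arrays as squares, D319N arrays as circles and lines at the mean of 3 arrays; vertical axes differ between panels. In every panel the 3 D319N points stand apart from the 3 Y261A points. In several panels the Y261A points also stand apart from the vector points, above them in FN1, ITGA5 and CLDN1 and below them in EPCAM and KRT5.

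Markers of the cell line and of other cell types were read beside these matrix and mesenchymal differences. Of the 8 breast epithelial markers, 2 were lower in D319N, KRT5 and KRT14, and 0 higher. The vector mean of KRT5, 12.78, lay above both mutants. For KRT14 the vector mean, 6.97, lay near the D319N mean of 6.94 and under the Y261A mean of 7.31. The summed linear signal of the 8 markers was 9824 to 11347 over the D319N arrays, 12746 to 14280 over the Y261A arrays and 14627 to 15170 over the vector arrays. Of 15 fibroblast and muscle markers, 4 were higher and 0 lower: POSTN, DCN, FAP (a surface protease, 1.21, adjusted p = 0.00188) and S100A4 (0.47, adjusted p = 0.0302). The defining fibroblast genes COL1A1, PDGFRA, PDGFRB and LUM differed by 0.00, -0.05, -0.14 and 0.08 and did not pass. The summed linear signal of the list was 1337 to 1379 over the D319N arrays, 913 to 982 over the Y261A arrays and 893 to 899 over the vector arrays, with 3, 4 and 4 members under the background mean. In the leukocyte list 1 of 14 was higher, CD68, a lysosomal glycoprotein gene (1.34 ± 0.11 SE, adjusted p = 0.00585), while PTPRC, which defines leukocytes, differed by 0.00 (adjusted p = 1). Leukocyte sums, which include CD68, were 1070 to 1204 in D319N and 852 to 901 in Y261A, with 5 members under background in both. The median difference of the 14 leukocyte markers was -0.02. No endothelial marker of 12 passed, with sums of 495 to 558 and 536 to 606. The part of other cells in the matrix differences was not tested, and in RNA from whole cultures fewer cells of a type cannot be told apart from less RNA per cell. The call of S100A4 was lost without D319N replicate 1 or 3 or Y261A replicate 1, 2 or 3 (adjusted p up to 0.127). The S100A4 call also ended without the correlated pair (adjusted p = 0.0826).

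Adherens, tight junction and apical genes were lower in D319N than in Y261A in 12 of 32 cases. EPCAM, an epithelial adhesion molecule, had the largest such difference, reading 6.20, 6.04 and 6.42 on the D319N arrays and 8.23, 8.22 and 8.22 on the Y261A arrays, a difference of -2.0 ± 0.10 (SE, adjusted p = 0.00188), a 4.01-fold lower level in D319N. The vector mean was 8.88 ± 0.19, so the Y261A level was also under the vector level. CDH1, which encodes E-cadherin, read 7.66, 7.45 and 7.72 on the D319N arrays and 8.85, 8.80 and 8.73 on the Y261A arrays, a difference of -1.19 ± 0.08 (SE, adjusted p = 0.00373) with no overlap. CLDN1, the tight junction protein claudin 1, differed by -1.39 ± 0.08 (SE, adjusted p = 0.00284), and its Y261A level of 9.37 was above the vector level of 9.02 ± 0.03. FAT2, an atypical cadherin, differed by -1.70 ± 0.06 (SE, adjusted p = 0.00104), and MAL2, a protein of apical transport, by -1.33 ± 0.06 (SE, adjusted p = 0.00154). In the whole list, 1 of 32 was higher and 12 lower in D319N (8 to 12 lower with 1 array left out, and 13 without the correlated pair), against 2.87% lower among all genes, and the median difference was -0.16. The P-cadherin gene CDH3 and JUP, which encodes plakoglobin, differed by -0.06 (adjusted p = 0.465) and 0.02 (adjusted p = 0.848) and did not pass. A row for the pseudogene OCLNP1, which may share sequence with the occludin gene OCLN, differed by -1.53 with a D319N mean of 4.72, under the background mean, and OCLN itself, chosen after its values were seen, by -0.77 (adjusted p = 0.0106).

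Desmosome genes, which encode the junctions that anchor keratin filaments, were lower in 5 of 12 cases and higher in 0 (1 to 3 lower with 1 array left out, lowest without Y261A replicate 2, and 4 without the correlated pair). DSG3, a desmosomal cadherin, read 7.94, 7.84 and 8.05 on the D319N arrays and 9.13, 9.04 and 8.87 on the Y261A arrays, a difference of -1.07 ± 0.09 (SE, adjusted p = 0.00568). All 3 D319N arrays lay below all 3 Y261A arrays. The other desmosomal calls were smaller: DSC3 (-0.54, adjusted p = 0.0376), PKP2 (-0.29, adjusted p = 0.046), PPL (-0.27, adjusted p = 0.00922) and, named after its values were seen, PKP3 (-0.17, adjusted p = 0.0492), where PPL encodes periplakin and the PKP genes encode plakophilins. The DSC3 call ended without D319N replicate 1, 2 or 3 or Y261A replicate 1 or 2 (adjusted p up to 0.13). The PKP2 call ended without D319N replicate 1 or 3 or Y261A replicate 1, 2 or 3 (adjusted p up to 0.154). The PPL call ended without Y261A replicate 2 (adjusted p = 0.0567). The PKP3 call ended whichever array was left out (adjusted p up to 0.169). The PKP2 call also ended with arrays centred on their median and without the correlated pair (adjusted p = 0.112 and 0.0673). The PKP3 call also ended with arrays centred on their median, with trended and robust moderation, with a raised spread for tied genes and without the correlated pair (adjusted p = 0.266, 0.057, 0.274 and 0.166). Of 12 epithelial keratins, 3 were lower and 0 higher (2 to 3 lower with 1 array left out, and 4 without the correlated pair), and the median difference was -0.27. KRT5, the main keratin of basal cells, read 11.50, 11.40 and 11.57 on the D319N arrays and 12.51, 12.41 and 12.35 on the Y261A arrays, a difference of -0.94 ± 0.06 (SE, adjusted p = 0.00362). Its partner KRT14 differed by -0.36 ± 0.06 (SE, adjusted p = 0.025) and KRT15 by -0.35 ± 0.03 (SE, adjusted p = 0.00456), while the luminal keratin gene KRT8 differed by 0.02 (adjusted p = 0.834). The KRT14 call was lost without D319N replicate 1 or 2 or Y261A replicate 1, 2 or 3 (adjusted p up to 0.103). The KRT14 call also ended without the correlated pair (adjusted p = 0.118). For KRT14 the vector mean, 6.97 ± 0.04, lay near the D319N mean of 6.94, and the Y261A mean, 7.31, lay above both.

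Regulators of the epithelial state differed in a minority of cases: 1 of 16 was higher and 4 lower in D319N (2 to 4 lower with 1 array left out, lowest without D319N replicate 1 or Y261A replicate 1 or 2, and 6 without the correlated pair). ESRP1, a splicing regulator of epithelial isoforms, read 6.66, 6.51 and 6.67 on the D319N arrays and 7.59, 7.57 and 7.48 on the Y261A arrays, a difference of -0.93 ± 0.06 (SE, adjusted p = 0.00305) with no overlap. GRHL3, a grainyhead factor, differed by -0.56 ± 0.05 (SE, adjusted p = 0.00646), EHF, an epithelial ETS factor, by -0.53 ± 0.07 (SE, adjusted p = 0.0197), and ESRP2 by -0.51 ± 0.06 (SE, adjusted p = 0.0132). The EHF values of Y261A were tied at 5.25, and its D319N mean, 4.72, was under the background mean. The EHF call ended without D319N replicate 1 or Y261A replicate 1, 2 or 3 (adjusted p up to 0.0955). The ESRP2 call ended without D319N replicate 1 or Y261A replicate 1 or 2 (adjusted p up to 0.0727). GRHL2 and OVOL1 differed by -0.13 (adjusted p = 0.271) and -0.22 (adjusted p = 0.216) and did not pass.

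Other genes with large lower levels were SLC27A2, a fatty acid transporter and acyl-CoA synthetase (difference -1.80 ± 0.21 SE, adjusted p = 0.0123), NUP210, a nuclear pore protein (-1.13 ± 0.03 SE, adjusted p = 0.000375), MPZL2, an epithelial adhesion protein (-1.10 ± 0.12 SE, adjusted p = 0.0109), and S100A14, a calcium-binding protein (-1.07 ± 0.10 SE, adjusted p = 0.00783). They were followed by IFI30, a lysosomal thiol reductase (-0.97 ± 0.09 SE, adjusted p = 0.00732), TACC2, a centrosomal protein (-0.96 ± 0.02 SE, adjusted p = 0.000306), and PLA2G4A, the cytosolic phospholipase that frees arachidonic acid (-0.94 ± 0.12 SE, adjusted p = 0.017). All 3 D319N signals of SLC27A2 lay below the background mean of 4.85, so its difference may be understated. The SLC27A2 and MPZL2 calls ended without D319N replicate 1 or Y261A replicate 1 or 2 (adjusted p up to 0.0701 and 0.0632). The S100A14 call ended without D319N replicate 1 or Y261A replicate 2 (adjusted p up to 0.0541). The IFI30 call ended without Y261A replicate 2 (adjusted p = 0.0515). The PLA2G4A call ended without D319N replicate 3 or Y261A replicate 1, 2 or 3 (adjusted p up to 0.084). The promoters of SLC27A2, NUP210 and S100A14 are shown because they hold the E-box CACCTG or its reverse complement CAGGTG, the letters that SNAI and ZEB family proteins bind. They come from the same RefSeq table and window, with the motif in capitals.
SLC27A2 promoter, chr15:50181946-50182245, plus strand: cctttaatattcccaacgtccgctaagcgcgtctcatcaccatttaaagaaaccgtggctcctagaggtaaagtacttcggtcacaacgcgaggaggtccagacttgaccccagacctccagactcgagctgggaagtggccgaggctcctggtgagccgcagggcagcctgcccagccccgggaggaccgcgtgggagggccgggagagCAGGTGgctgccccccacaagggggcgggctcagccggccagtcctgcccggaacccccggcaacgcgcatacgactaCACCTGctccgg
NUP210 promoter, chr3:13420273-13420572, minus strand: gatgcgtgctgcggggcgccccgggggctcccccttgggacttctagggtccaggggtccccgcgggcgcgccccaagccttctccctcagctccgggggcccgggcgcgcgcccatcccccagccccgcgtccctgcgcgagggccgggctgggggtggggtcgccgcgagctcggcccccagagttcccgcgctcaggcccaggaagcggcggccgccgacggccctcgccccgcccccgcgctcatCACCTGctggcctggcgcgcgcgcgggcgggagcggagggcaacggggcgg
S100A14 promoter, chr1:153616276-153616575, minus strand: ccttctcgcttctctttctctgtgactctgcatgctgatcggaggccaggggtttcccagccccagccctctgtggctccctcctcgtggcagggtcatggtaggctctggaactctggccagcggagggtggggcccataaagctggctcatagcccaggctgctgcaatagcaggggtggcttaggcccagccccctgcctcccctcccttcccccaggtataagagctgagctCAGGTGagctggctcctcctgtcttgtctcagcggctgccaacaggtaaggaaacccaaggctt
The motif, searched on both strands, was in 5 of the 10 matched promoters among the 15 largest lower levels (the 3 shown, IFI30 and TACC2), in 1 of 11 among the 15 largest higher levels (EREG) and in 19.9% of the promoters of all tested genes. Among all genes lower in D319N it was in 24.8%, and among all genes higher in D319N in 15.3%.

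Array rows that carry microRNA gene symbols were read as transcripts of those genes and not as mature microRNAs. Of 1041 such rows, 15 passed, 6 higher and 9 lower in D319N, a share of 1.44% beside 8.63% of all genes. MIR21 and MIR29A, chosen after their values were seen, were the microRNA genes with the largest differences, both higher in D319N, and the main mature product of each is printed from RefSeq with its seed, bases 2 to 8, in capitals.
hsa-miR-21-5p, GRCh38.p14 chr17:59841273-59841294, plus strand: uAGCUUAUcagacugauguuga
hsa-miR-29a-3p, GRCh38.p14 chr7:130876748-130876769, minus strand: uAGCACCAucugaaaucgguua
MIR21 read 7.17, 6.97 and 7.22 on the D319N arrays and 5.67, 5.87 and 5.08 on the Y261A arrays, a difference of 1.58 ± 0.22 (SE, adjusted p = 0.02). MIR29A read 5.32, 5.09 and 4.88 on the D319N arrays and 3.27, 3.86 and 3.47 on the Y261A arrays, a difference of 1.56 ± 0.19 (SE, adjusted p = 0.0142). The arrays of the mutants did not overlap for either gene, and the Y261A level of MIR29A was below the background mean. The MIR21 call ended without D319N replicate 1 or 3 or Y261A replicate 1 or 2 (adjusted p up to 0.0988). The MIR29A call ended without D319N replicate 1 or Y261A replicate 1 or 3 (adjusted p up to 0.0688). The MIR29A call also ended without the correlated pair (adjusted p = 0.0894). The rows of the miR-200 family genes MIR200A, MIR200B and MIR200C differed by 0.05, -0.07 and -0.43 and did not pass. The means of MIR200A and MIR200C lay under the background mean in both mutants, so a difference there may be understated. All 3 D319N arrays of MIR200C lay below the Y261A arrays (adjusted p = 0.0902).

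ERK's own partners were considered next, by the surface they use. Among partners with a D motif, 4 of 17 were higher and 0 lower in D319N (0 to 2 higher with 1 array left out, lowest without D319N replicate 1 or Y261A replicate 1, 2 or 3, and 3 without the correlated pair), and the median difference was 0.04. DUSP4, a nuclear ERK phosphatase, read 8.75, 8.43 and 8.90 on the D319N arrays and 7.84, 7.77 and 7.66 on the Y261A arrays, a difference of 0.94 ± 0.13 (SE, adjusted p = 0.0212), and no array overlapped. DUSP6, the cytoplasmic ERK phosphatase, differed by 0.48 ± 0.09 (SE, adjusted p = 0.0466), MAP2K1, which encodes MEK1, by 0.44 ± 0.07 (SE, adjusted p = 0.0282), and RPS6KA2, an RSK kinase, by 0.29 ± 0.05 (SE, adjusted p = 0.0315). The DUSP4 and MAP2K1 calls ended without D319N replicate 1 or 3 or Y261A replicate 1, 2 or 3 (adjusted p up to 0.103 and 0.124). The DUSP6 call ended whichever array was left out (adjusted p up to 0.168). The RPS6KA2 call ended without D319N replicate 1 or 2 or Y261A replicate 1, 2 or 3 (adjusted p up to 0.12). The RPS6KA2 call also ended without the correlated pair (adjusted p = 0.0973). MAP2K2 and RPS6KA1 differed by 0.04 (adjusted p = 0.427) and -0.18 (adjusted p = 0.0524) and did not pass. MAPK3, the gene for ERK1, differed by 0.00 ± 0.01 (SE, adjusted p = 0.961), and by -0.10 after quantile normalisation. Its rounded signal was 7.96 on every D319N and Y261A array, so the small SE may reflect tied or nearly tied values and not precision.

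Among substrates with a DEF motif, 2 of 11 were higher and 1 lower in D319N (1 to 2 higher with 1 array left out, lowest without D319N replicate 1 or 3 or Y261A replicate 1, 2 or 3, and 1 without the correlated pair). EGR1, an immediate early zinc finger factor, read 9.96, 9.83 and 10.08 on the D319N arrays and 8.17, 8.11 and 7.90 on the Y261A arrays, a 3.72-fold higher level in D319N with no overlap (difference 1.90 ± 0.10 SE, adjusted p = 0.00223). The vector mean of 8.18 ± 0.08 was close to Y261A. FOSL1, which encodes the AP-1 protein FRA1, differed by 0.33 ± 0.05 (SE, adjusted p = 0.0246), and MYC, a growth regulator, differed by -0.44 ± 0.06 (SE, adjusted p = 0.0217). The FOSL1 call ended without D319N replicate 1 or 3 or Y261A replicate 1, 2 or 3 (adjusted p up to 0.106). The MYC call ended without D319N replicate 1 or Y261A replicate 1, 2 or 3 (adjusted p up to 0.101). The FOSL1 and MYC calls also ended without the correlated pair (adjusted p = 0.0513 and 0.0516). FOS itself differed by 0.01 (adjusted p = 0.634) and did not pass.

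The ERK-induced feedback inhibitors, which damp the pathway, had 6 of 13 members higher and 2 lower, with a median difference of 0.29 (1 to 5 higher with 1 array left out, lowest without Y261A replicate 2, and 5 without the correlated pair). SPRY4, a Sprouty inhibitor of receptor signalling, read 8.48, 8.35 and 8.58 on the D319N arrays and 7.64, 7.53 and 7.49 on the Y261A arrays, a difference of 0.92 ± 0.07 (SE, adjusted p = 0.00516). The groups did not overlap. IER3, an immediate early response gene, and DUSP5, a nuclear ERK phosphatase, were higher by 0.71 ± 0.07 (SE, adjusted p = 0.00981) and 0.45 ± 0.06 (SE, adjusted p = 0.0168), and LRIG1, which restrains EGFR family receptors, differed by -0.37 ± 0.03 (SE, adjusted p = 0.00521). The IER3 call ended without D319N replicate 1 or Y261A replicate 2 (adjusted p up to 0.0582). The DUSP5 call ended without Y261A replicate 1, 2 or 3 (adjusted p up to 0.084). The DUSP5 call also ended without the correlated pair (adjusted p = 0.0857).

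Immediate early transcription factors were higher in 8 of 25 cases and lower in 1 (3 to 10 higher with 1 array left out, lowest without Y261A replicate 2, and 6 without the correlated pair). JUNB, an AP-1 subunit, read 9.56, 9.41 and 9.49 on the D319N arrays and 8.27, 8.22 and 8.12 on the Y261A arrays, a difference of 1.28 ± 0.06 (SE, adjusted p = 0.00157) with no overlap. BHLHE40, a helix-loop-helix repressor, differed by 0.77 ± 0.07 (SE, adjusted p = 0.00689), KLF10, a TGF-beta-inducible factor, by 0.45 ± 0.05 (SE, adjusted p = 0.0121), and ZFP36, which destabilises AU-rich transcripts, by 0.82 ± 0.11 (SE, adjusted p = 0.0183). The KLF10 call ended without D319N replicate 3 or Y261A replicate 2 (adjusted p up to 0.0652). The ZFP36 call ended without D319N replicate 1 or 3 or Y261A replicate 1, 2 or 3 (adjusted p up to 0.0928). The KLF10 call also ended without the correlated pair (adjusted p = 0.0549). FOSB and NR4A1 differed by -0.07 (adjusted p = 0.423) and -0.08 (adjusted p = 0.3). Among ETS factors and other ERK output transcripts, 6 of 17 were higher and 2 lower in D319N (3 to 6 higher with 1 array left out, lowest without D319N replicate 1 or Y261A replicate 2, and 6 without the correlated pair). PHLDA1 differed by 0.88 ± 0.06 (SE, adjusted p = 0.00397), HMGA2, an architectural chromatin protein, by 0.79 ± 0.07 (SE, adjusted p = 0.00594), and ETS1 by 0.77 ± 0.07 (SE, adjusted p = 0.00771), while ETS2 went the other way at -0.54 ± 0.05 (SE, adjusted p = 0.0084). The ETS2 call was lost without D319N replicate 1 (adjusted p = 0.0542).

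**Figure D3:**
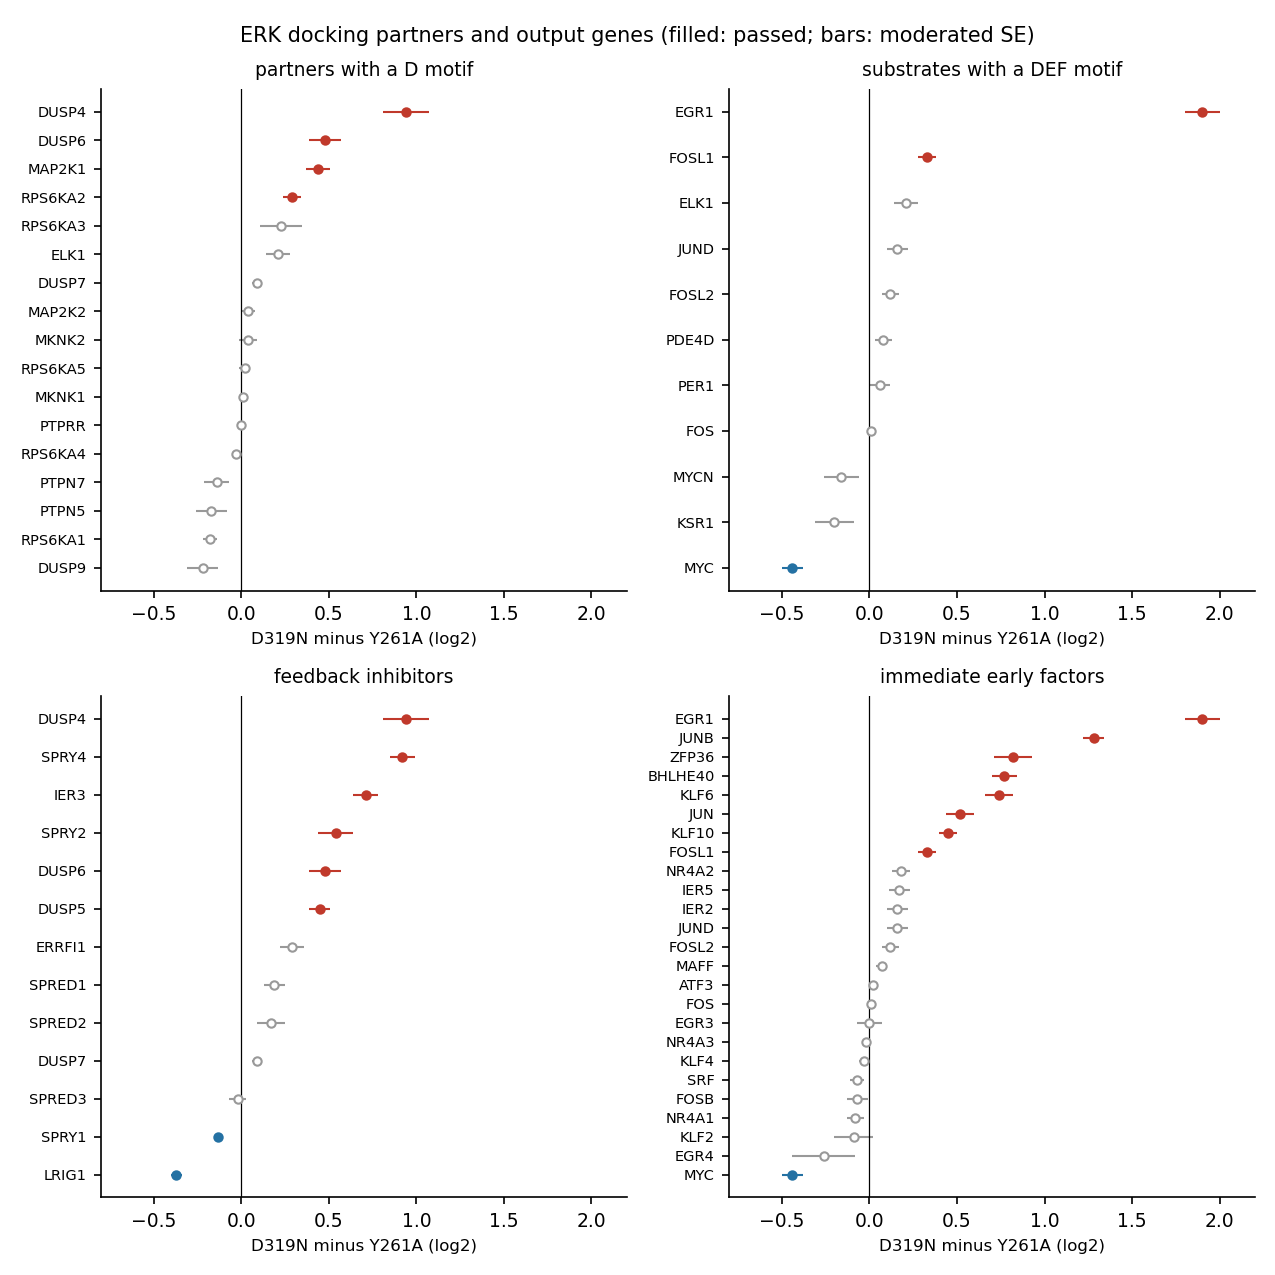
Difference between the D319N and Y261A means (horizontal axes, log2, with moderated SE bars) for each measured member of 4 lists: partners with a D motif, substrates with a DEF motif, feedback inhibitors and immediate early factors. Filled points passed the test and open points did not; EGR1 at 1.90 lies furthest to the right, and MYC at -0.44 is the lowest filled point.

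TGF-beta ligands, receptors, latency proteins and targets were higher in 13 of 26 cases and lower in 0 (5 to 16 higher with 1 array left out, lowest without Y261A replicate 2, and 14 without the correlated pair), with a median difference of 0.32. INHBA, the activin A subunit, read 7.55, 7.26 and 7.39 on the D319N arrays and 6.17, 6.20 and 6.02 on the Y261A arrays, a difference of 1.27 ± 0.09 (SE, adjusted p = 0.00384) with no overlap. TGFB2, a TGF-beta ligand, differed by 0.84 ± 0.06 (SE, adjusted p = 0.00424), and SKIL, a SMAD corepressor that is itself a TGF-beta target, by 1.05 ± 0.07 (SE, adjusted p = 0.00382). The inhibitor gene BAMBI and the BMP target gene ID3 differed by 0.06 (adjusted p = 0.0837) and 0.04 (adjusted p = 0.789) and did not pass.

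Secreted signals were also compared. EREG, which encodes the EGFR ligand epiregulin, read 8.11, 7.89 and 7.85 on the D319N arrays and 5.95, 5.85 and 5.72 on the Y261A arrays, a 4.32-fold higher level in D319N (difference 2.11 ± 0.09 SE, adjusted p = 0.00154), and the groups were far apart. In the EGFR family list, 3 of 13 were higher and 2 lower in D319N (1 to 3 higher with 1 array left out, lowest without Y261A replicate 1 or 2, and 2 without the correlated pair), with NRG1 at 0.31 (adjusted p = 0.0113) and the ligand EPGN at -0.67 (adjusted p = 0.0118). NRG1 had 3 rows, and the dimmer rows, with means under the background level, both differed by 0.02. EGFR and HBEGF differed by 0.03 (adjusted p = 0.783) and 0.03 (adjusted p = 0.43). Among chemokines and cytokines, 8 of 25 were higher and 1 lower in D319N (6 to 10 higher with 1 array left out, and 9 without the correlated pair). The neutrophil chemokine genes CXCL8, CXCL1 and CXCL2 differed by 1.4 ± 0.10 (SE, adjusted p = 0.00368), 1.16 ± 0.08 (SE, adjusted p = 0.00368) and 0.49 ± 0.04 (SE, adjusted p = 0.00521), while IL6 and CCL2 differed by -0.12 (adjusted p = 0.328) and -0.17 (adjusted p = 0.157). Of the WNT ligands and secreted inhibitors, 2 of 22 were higher and 1 lower in D319N (1 to 2 higher with 1 array left out, lowest without D319N replicate 1 or 3 or Y261A replicate 1 or 2, and 2 without the correlated pair): DKK1 differed by 0.98 ± 0.05 (SE, adjusted p = 0.00241), WNT5A by 0.56 ± 0.07 (SE, adjusted p = 0.0144) and SFRP1 by -0.36 ± 0.07 (SE, adjusted p = 0.0458). The share called in the WNT list was 13.6%, beside 8.63% of all genes. The NRG1 call ended without Y261A replicate 1 or 2 (adjusted p up to 0.0632). The EPGN call ended without D319N replicate 1 or Y261A replicate 1 or 2 (adjusted p up to 0.0675). The WNT5A call ended without D319N replicate 1 or 3 or Y261A replicate 1 or 2 (adjusted p up to 0.0706). The SFRP1 call ended without D319N replicate 1 or 3 or Y261A replicate 1, 2 or 3 (adjusted p up to 0.151). The NRG1 call also ended with its rows averaged and without the correlated pair (adjusted p = 0.249 and 0.0653). The SFRP1 call also ended with arrays centred on their median (adjusted p = 0.0743).

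DOCK exchange factors, which load RAC and CDC42 with GTP, RAC GTPases and the WAVE complex were described together, and 6 of 29 were higher and 1 lower in D319N (0 to 5 higher with 1 array left out, lowest without D319N replicate 1, and 11 without the correlated pair). DOCK10 read 6.64, 6.44 and 6.67 on the D319N arrays and 5.33, 5.39 and 5.00 on the Y261A arrays, a difference of 1.34 ± 0.13 (SE, adjusted p = 0.00782). The lowest D319N array was clear of the highest Y261A array. DOCK4 and DOCK11 differed by 0.92 ± 0.09 (SE, adjusted p = 0.00917) and 0.96 ± 0.13 (SE, adjusted p = 0.02). The DOCK10 call ended without D319N replicate 1 (adjusted p = 0.0537). The DOCK4 call ended without D319N replicate 1 or Y261A replicate 2 (adjusted p up to 0.0551). The DOCK11 call ended without D319N replicate 1 or 3 or Y261A replicate 1 or 2 (adjusted p up to 0.0982). CYFIP2, a WAVE complex subunit, differed by -0.64 ± 0.02 (SE, adjusted p = 0.000663) and kept its call with any 1 array left out. RAC1 differed by 0.22 ± 0.06 (SE, adjusted p = 0.12) and did not pass, but passed with all 9 arrays in the fit (adjusted p = 0.0349) and with array weights (adjusted p = 0.015).

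FoxO factors, which ERK and AKT are known to restrain, and their targets were higher in 7 of 24 cases and lower in 0 (6 to 7 higher with 1 array left out, and 6 without the correlated pair). FOXO1 read 8.41, 8.28 and 8.45 on the D319N arrays and 8.0, 7.83 and 7.76 on the Y261A arrays, a difference of 0.52 ± 0.08 (SE, adjusted p = 0.0248). The arrays did not overlap, but the call was lost without D319N replicate 1 or 3 or Y261A replicate 2 or 3 (adjusted p up to 0.114). The FOXO1 call also ended without the correlated pair (adjusted p = 0.0553). FBXO32, the ubiquitin ligase atrogin-1, read 8.45, 8.43 and 8.59 on the D319N arrays and 6.33, 6.33 and 6.03 on the Y261A arrays, a 4.79-fold higher level in D319N (difference 2.26 ± 0.10 SE, adjusted p = 0.00154). The metabolic regulator TXNIP differed by 0.84 ± 0.07 (SE, adjusted p = 0.00542), the stress gene GADD45A by 0.79 ± 0.05 (SE, adjusted p = 0.00341) and the cyclin gene CCNG2 by 0.38 ± 0.02 (SE, adjusted p = 0.00226), and these 3 calls held with any 1 array left out. FOXO3 and the target BCL2L11 differed by 0.28 (adjusted p = 0.137) and -0.11 (adjusted p = 0.105) and did not pass.

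YAP and SRF contractile targets were higher in 8 of 21 cases and lower in 1 (2 to 9 higher with 1 array left out, lowest without D319N replicate 1 or 3 or Y261A replicate 2 or 3, and 5 without the correlated pair). Beyond AXL and CCN1, described above, FHL2 differed by 0.40 ± 0.06 (SE, adjusted p = 0.0239) and the tropomyosin gene TPM4 by 0.40 ± 0.05 (SE, adjusted p = 0.0144). The FHL2 call ended without D319N replicate 1 or 3 or Y261A replicate 1, 2 or 3 (adjusted p up to 0.107). The TPM4 call ended without D319N replicate 1 or 3 or Y261A replicate 2 or 3 (adjusted p up to 0.0771). The TPM4 call also ended without the correlated pair (adjusted p = 0.0529). ANKRD1 and CNN1 differed by -0.19 (adjusted p = 0.0775) and -0.25 (adjusted p = 0.242). Among ephrins, semaphorins, neuropilins and axon guidance genes, 7 of 21 were higher and 1 lower in D319N (3 to 8 higher with 1 array left out, lowest without D319N replicate 1 or Y261A replicate 2, and 7 without the correlated pair). SEMA3C, a secreted semaphorin, differed by 1.09 ± 0.08 (SE, adjusted p = 0.00414) and EFNB2, a transmembrane ephrin, by 1.08 ± 0.12 (SE, adjusted p = 0.0121). The EFNB2 call was lost without D319N replicate 1 or Y261A replicate 2 (adjusted p up to 0.0692).

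Lipid mediator and steroid enzymes held a pair of the largest differences, and 7 of 18 were higher and 1 lower in D319N (3 to 10 higher with 1 array left out, lowest without D319N replicate 1 or 3, and 7 without the correlated pair). HSD17B2, which oxidises oestradiol to oestrone, read 10.63, 10.47 and 10.62 on the D319N arrays and 8.35, 8.40 and 8.26 on the Y261A arrays, a 4.73-fold higher level in D319N (difference 2.24 ± 0.06 SE, adjusted p = 0.000663). The vector mean was 6.03 ± 0.05, so the Y261A arrays again lay between the vector and D319N. S1PR3, a sphingosine 1-phosphate receptor, differed by 2.18 ± 0.19 (SE, adjusted p = 0.00606) in its brighter row, while its other row, with means of 6.62 and 6.61, differed by 0.01, and their average by 1.09. The aldo-keto reductase genes AKR1C1 and AKR1B10 differed by 0.32 ± 0.02 (SE, adjusted p = 0.00362) and -0.21 ± 0.02 (SE, adjusted p = 0.0112), and the Y261A values of AKR1B10 were tied at 5.52 on all 3 arrays. The AKR1B10 call ended without Y261A replicate 1 or 2 (adjusted p up to 0.0632). The AKR1B10 call also ended with arrays centred on their median and with a raised spread for tied genes (adjusted p = 0.09 and 0.123).

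Cell division genes that passed were mostly lower in D319N, by small amounts. Of the G2 and mitosis genes, 0 of 28 were higher and 8 lower in D319N (1 to 4 lower with 1 array left out, lowest without Y261A replicate 1 or 2, and 6 without the correlated pair), with a median difference of -0.21. CCNA2, which encodes cyclin A2, read 8.89, 8.78 and 8.85 on the D319N arrays and 9.43, 9.38 and 9.34 on the Y261A arrays, a difference of -0.54 ± 0.04 (SE, adjusted p = 0.00403) with no overlap. MYBL2, a cell cycle transcription factor, CCNB1, which encodes cyclin B1, and TOP2A differed by -0.52 ± 0.06 (SE, adjusted p = 0.0125), -0.32 ± 0.05 (SE, adjusted p = 0.0296) and -0.22 ± 0.03 (SE, adjusted p = 0.0247). The MYBL2 call ended without D319N replicate 1 or Y261A replicate 1 or 2 (adjusted p up to 0.0681). The CCNB1 call ended whichever array was left out (adjusted p up to 0.103). The TOP2A call ended without D319N replicate 1 or 3 or Y261A replicate 1 or 2 (adjusted p up to 0.106). The CCNB1 call also ended with arrays centred on their median and without the correlated pair (adjusted p = 0.0649 and 0.0785). The TOP2A call also ended with all 9 arrays in the fit, with arrays centred on their median and with a raised spread for tied genes (adjusted p = 0.0963, 0.12 and 0.104). MKI67 and AURKA differed by -0.15 (adjusted p = 0.0847) and -0.18 (adjusted p = 0.0967) and did not pass. Of the DNA replication genes, 0 of 28 were higher and 2 lower in D319N (0 to 4 lower with 1 array left out, lowest without D319N replicate 1 or Y261A replicate 1 or 2, and 7 without the correlated pair), with a median difference of -0.16, and MCM2, a helicase subunit, differed by -0.32 ± 0.04 (SE, adjusted p = 0.0129). Of the G1 cyclins and CDK inhibitors, 1 of 18 was higher and 1 lower in D319N (0 to 2 lower with 1 array left out, lowest without D319N replicate 1 or 3 or Y261A replicate 2, and 2 without the correlated pair): CCND1 differed by 0.51 ± 0.07 (SE, adjusted p = 0.017) and CCND2 by -0.64 ± 0.08 (SE, adjusted p = 0.0145). Shares called were 28.6% of the G2 and mitosis list, 7.14% of the replication list and 11.1% of the G1 list, beside 8.63% of all genes. The MCM2 call ended without D319N replicate 1 or Y261A replicate 1 or 2 (adjusted p up to 0.0711). The CCND1 and CCND2 calls ended without D319N replicate 1 or 3 or Y261A replicate 2 (adjusted p up to 0.0859 and 0.0769). The MCM2 call also ended with arrays centred on their median (adjusted p = 0.0503).

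Stress and metabolic lists were read in the same way. Of the heat shock and chaperonin genes, 1 of 16 was higher and 4 lower in D319N (2 to 4 lower with 1 array left out, lowest without D319N replicate 1 or Y261A replicate 2, and 4 without the correlated pair): HSPA4L differed by -1.07 ± 0.07 (SE, adjusted p = 0.00341), HSPD1 by -0.45 ± 0.03 (SE, adjusted p = 0.00472), HSP90AB1 by -0.33 ± 0.04 (SE, adjusted p = 0.015) and HSPE1 by -0.30 ± 0.04 (SE, adjusted p = 0.0159). Of the serine synthesis and ATF4 target genes, 0 of 17 were higher and 3 lower in D319N (0 to 3 lower with 1 array left out, lowest without Y261A replicate 2, and 3 without the correlated pair), among them the serine enzyme PSAT1 (-0.86 ± 0.08 SE, adjusted p = 0.00689) and the asparagine synthetase gene ASNS (-0.33 ± 0.04 SE, adjusted p = 0.0132). Of the glycolysis and hypoxia genes, 3 of 26 were higher and 2 lower in D319N (1 to 3 higher with 1 array left out, lowest without Y261A replicate 2, and 2 without the correlated pair), with ANGPTL4, a secreted inhibitor of lipoprotein lipase, at 1.61 ± 0.07 (SE, adjusted p = 0.0017), NDRG1 at 0.47 ± 0.05 (SE, adjusted p = 0.00981) and DDIT4 at -0.57 ± 0.07 (SE, adjusted p = 0.0138), while GAPDH and LDHA differed by 0.02 (adjusted p = 0.759) and -0.03 (adjusted p = 0.396). Shares called were 31.2% of the heat shock list, 17.6% of the serine and ATF4 list and 19.2% of the glycolysis list, beside 8.63% of all genes. The HSP90AB1 call ended without D319N replicate 1 or 3 or Y261A replicate 2 (adjusted p up to 0.067). The HSPE1 call ended without D319N replicate 1 or Y261A replicate 1, 2 or 3 (adjusted p up to 0.0735). The PSAT1 call ended without Y261A replicate 2 (adjusted p = 0.051). The ASNS and DDIT4 calls ended without D319N replicate 1 or Y261A replicate 1 or 2 (adjusted p up to 0.0732 and 0.0755). The NDRG1 call ended without D319N replicate 1 or Y261A replicate 2 (adjusted p up to 0.0607). The HSP90AB1 call also ended without the correlated pair (adjusted p = 0.0593). The HSPE1 call also ended with arrays centred on their median (adjusted p = 0.0581).

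The remaining lists had 1 to 4 members called each. Shares called were 17.4% of the interferon list, 17.6% of the p53 list, 5.88% of the sterol list and 7.41% of the squamous list, beside 8.63% of all genes. Of the interferon response genes, 2 of 23 were higher and 2 lower in D319N (0 to 3 lower with 1 array left out, lowest without Y261A replicate 2, and 3 without the correlated pair), with IFI44L and IFI6 at 0.73 and 0.56 (adjusted p = 0.0195 and 0.0356) and OAS1 and OAS3 at -0.40 and -0.36 (adjusted p = 0.00782 and 0.00909). Of the p53 target genes, 2 of 17 were higher and 1 lower in D319N (0 to 3 higher with 1 array left out, lowest without D319N replicate 1 or 3 or Y261A replicate 1 or 2, and 3 without the correlated pair). TP53I3 and GDF15 were higher, at 0.56 and 0.35 (adjusted p = 0.0227 and 0.0414), and MDM2 was lower, at -0.16 (adjusted p = 0.0401). CDKN1A, at 0.19 (adjusted p = 0.167), did not pass. Of the sterol and fatty acid synthesis genes, 0 of 17 were higher and 1 lower in D319N (0 to 1 lower with 1 array left out, lowest without D319N replicate 1 or Y261A replicate 1 or 2, and 1 without the correlated pair), which was SREBF1 at -0.22 (adjusted p = 0.014). Of the squamous differentiation genes, 0 of 27 were higher and 2 lower in D319N (0 to 2 lower with 1 array left out, lowest without D319N replicate 3 or Y261A replicate 1 or 2, and 3 without the correlated pair): S100A9 at -0.31 (adjusted p = 0.0168) and SCEL at -0.40 (adjusted p = 0.0261). The Y261A mean of IFI44L and the D319N mean of SCEL, 4.37 and 4.61, were under the background mean. The IFI44L and S100A9 calls ended without D319N replicate 1 or 3 or Y261A replicate 1 or 2 (adjusted p up to 0.0969 and 0.0812). The IFI6, TP53I3 and GDF15 calls ended without D319N replicate 1 or 3 or Y261A replicate 1, 2 or 3 (adjusted p up to 0.143, 0.098 and 0.15). The OAS1 and OAS3 calls ended without Y261A replicate 2 (adjusted p = 0.0525 and 0.0528). The SREBF1 call ended without D319N replicate 1 or Y261A replicate 1 or 2 (adjusted p up to 0.0722). The SCEL and MDM2 calls ended without D319N replicate 1, 2 or 3 or Y261A replicate 1 or 2 (adjusted p up to 0.107 and 0.143). The MDM2 call also ended with all 9 arrays in the fit and with trended and robust moderation (adjusted p = 0.077 and 0.0528). It ended too with arrays centred on their median and with a raised spread for tied genes (adjusted p = 0.291 and 0.304). The SREBF1 call also ended with arrays centred on their median, with a raised spread for tied genes and without the correlated pair (adjusted p = 0.126, 0.119 and 0.0654).

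**Figure D4:**
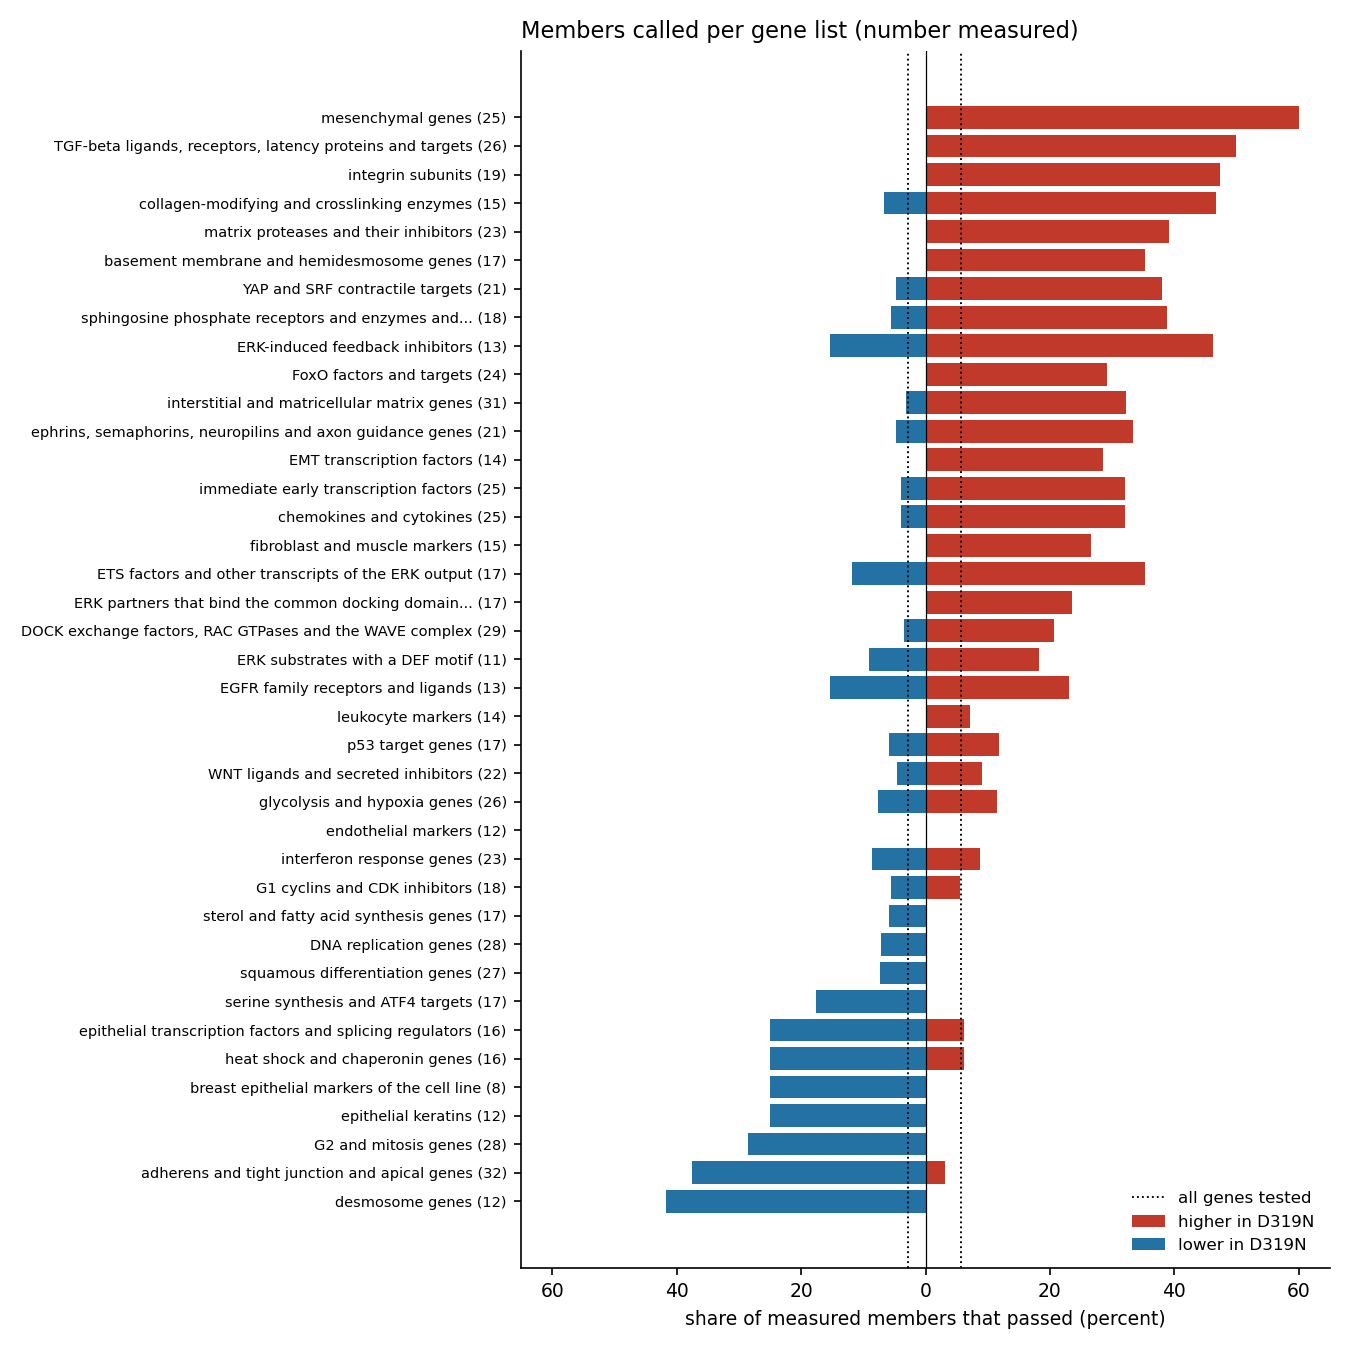
Share of the measured members of each of the 39 gene lists that passed the test (horizontal axis, percent), with members higher in D319N to the right and members lower in D319N to the left; the number measured stands beside each name and dotted lines mark all genes tested, 5.76% higher and 2.87% lower. Mesenchymal genes, with 15 of 25 higher, stand at the top, and desmosome genes, with 5 of 12 lower, at the bottom.

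The vector arrays give a reference level for each difference and are described here without a test. Among the 15 largest higher levels, FN1 and HSD17B2 had vector means of 7.41 and 6.03 against 9.59 and 8.33 in Y261A. Of the 135 genes called at least 2-fold higher in D319N, the vector mean lay beyond the Y261A mean, away from D319N, in 90, within the first 0.3 of the way from Y261A to D319N in 43 and between 0.3 and 0.7 of the way in 2. Of the 12 called at least 2-fold lower, it lay beyond Y261A in 11 and within the first 0.3 of the way in 1. It lay more than 0.7 of the way to D319N in 0 of these 147 genes. Among called genes that differed by at least 0.5 (log2) but less than 2-fold, a few had a vector mean nearer to D319N than to Y261A. Calls under 0.5 were not searched by this rule. Among them, KRT14, MIR1229 and MIR3127, at -0.36, -0.35 and -0.35, also had vector means nearer to D319N. MAOA, the monoamine oxidase A gene, read 8.09, 7.96 and 8.15 on the D319N arrays and 8.96, 8.87 and 8.68 on the Y261A arrays, with a vector mean of 8.16 ± 0.03 near the D319N level and a D319N minus Y261A difference of -0.77 ± 0.09 (SE, adjusted p = 0.0126). PRXL2A differed in the same direction, by -0.61 ± 0.07 (SE, adjusted p = 0.0131), and its vector mean of 6.72 ± 0.01 lay nearer to D319N. GARIN6 was chosen by the same rule, but its means in D319N, Y261A and vector, 4.08, 4.80 and 4.21, all lay under the background mean of 4.85, and no difference is read from it. ACSL1, a long-chain acyl-CoA synthetase, and ZFP36L2, an RNA-binding protein that destabilises AU-rich transcripts, were higher in D319N by 0.57 ± 0.11 (SE, adjusted p = 0.0406) and 0.66 ± 0.11 (SE, adjusted p = 0.0333), again with vector means of 8.95 ± 0.07 and 9.83 ± 0.05 nearer to D319N. The MAOA call ended without D319N replicate 1 or Y261A replicate 2 (adjusted p up to 0.0712). The PRXL2A call ended without D319N replicate 1 or 3 or Y261A replicate 1 or 2 (adjusted p up to 0.067). The ACSL1 call ended whichever array was left out (adjusted p up to 0.158). The ZFP36L2 call ended without D319N replicate 1 or 3 or Y261A replicate 1, 2 or 3 (adjusted p up to 0.138). The ZFP36L2 call also ended without the correlated pair (adjusted p = 0.0622).

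In other genes the vector mean lay between the means of the mutants. XDH, which encodes xanthine dehydrogenase, read 6.5, 6.44 and 6.54 on the D319N arrays and 7.26, 7.27 and 7.11 on the Y261A arrays, with a vector mean of 6.96 ± 0.01 between them and a difference of -0.72 ± 0.05 (SE, adjusted p = 0.00454) that held with any 1 array left out. OLR1, the receptor for oxidised LDL, differed by -0.62 ± 0.08 (SE, adjusted p = 0.0184) around a vector mean of 5.09 ± 0.00. ARRB1, which encodes beta-arrestin 1, was higher in D319N by 1.17 ± 0.14 (SE, adjusted p = 0.0127) with a vector mean of 6.79 ± 0.00, and DSEL, a dermatan sulfate epimerase homologue, by 1.02 ± 0.13 (SE, adjusted p = 0.0141) with a vector mean of 6.56 ± 0.09. Every vector array of ARRB1 read 6.79 as rounded, so its SD of 0.00 may reflect tied values. EDA2R, a receptor of the TNF family, was higher by 0.81 ± 0.13 (SE, adjusted p = 0.0267) with a vector mean of 7.37 ± 0.04. All 3 D319N signals of OLR1 were below the background mean. The OLR1 call ended without D319N replicate 1 or 3 or Y261A replicate 1 or 2 (adjusted p up to 0.0875). The ARRB1 call ended without D319N replicate 1 or Y261A replicate 1, 2 or 3 (adjusted p up to 0.0712). The DSEL call ended without D319N replicate 1 or 3 or Y261A replicate 2 (adjusted p up to 0.0744). The EDA2R call ended without D319N replicate 1 or 3 or Y261A replicate 1, 2 or 3 (adjusted p up to 0.12).

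**Figure D5:**
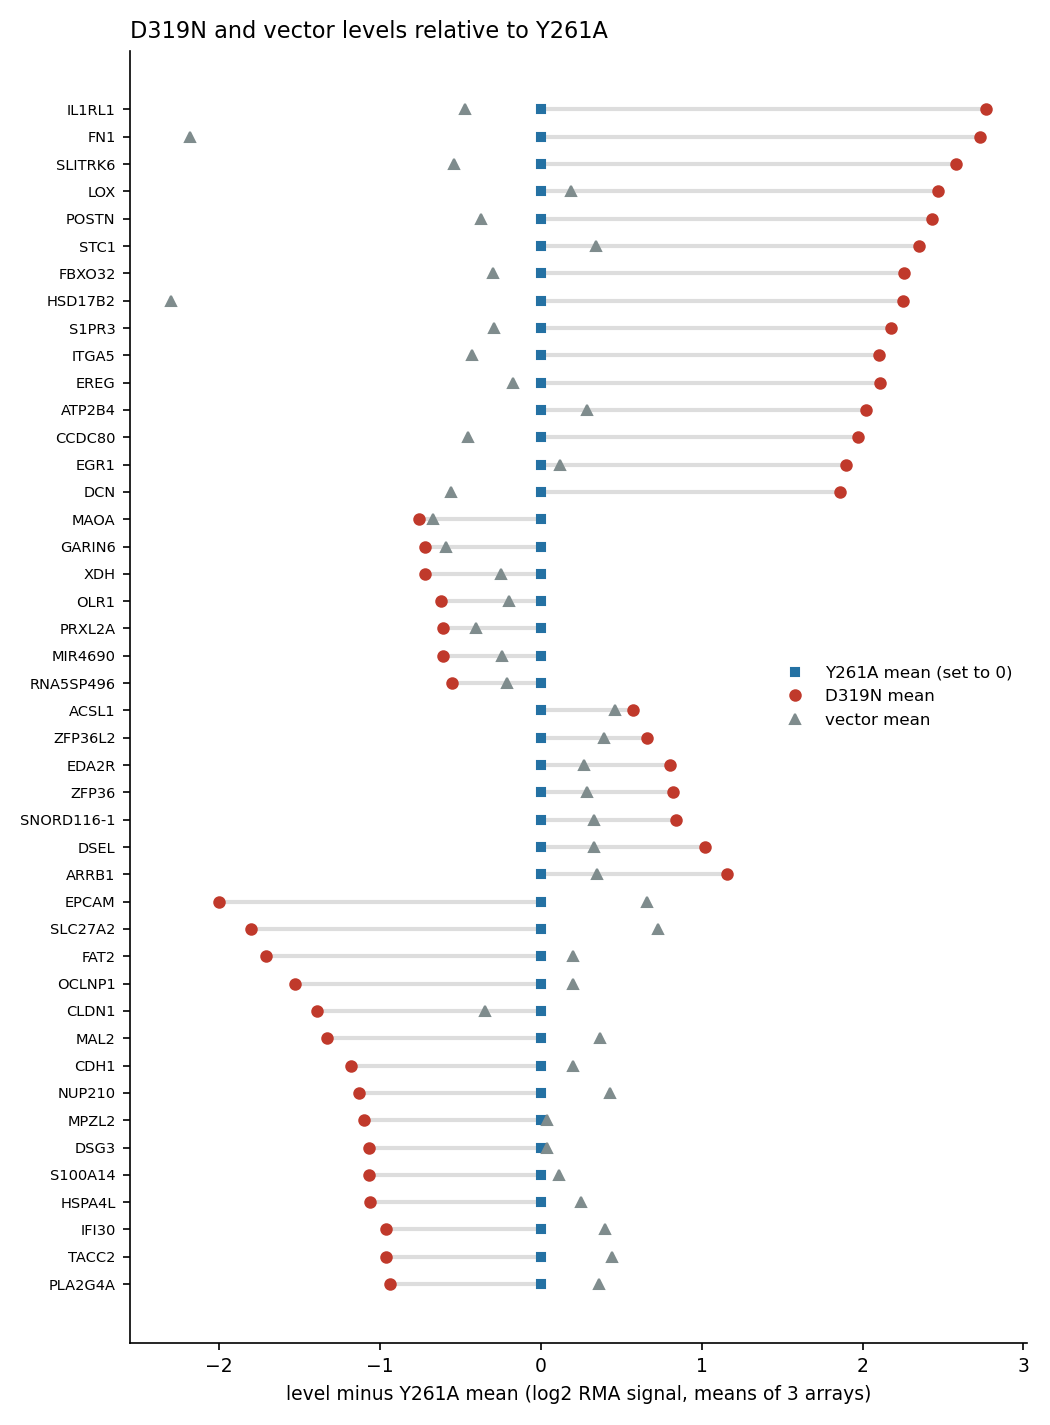
Mean log2 RMA signal of D319N (circles) and vector (triangles) arrays relative to the Y261A mean, which is set to 0 (squares), for the 15 largest differences in each direction and, between them, the genes whose vector level lies near D319N or between the mutants. The vector triangles of FN1 and HSD17B2 lie furthest to the left of Y261A, and that of MAOA lies beside D319N.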

How the data were processed

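Total RNA from the 9 samples was labelled and hybridised to Affymetrix arrays, 1 array per sample. The deposited values are log2 signals, which the authors obtained by RMA in Affymetrix Expression Console 1.4 (per the submitters' processing notes). They ran from 1.08 to 14.45. Of 70523 rows, 1530 were controls, 23781 carried 1 gene symbol, 1543 several and 43669 none, by the platform annotation. With 306 symbols updated and 4 unmatched in RefSeq, and the brightest row kept for 528 genes with several, 22411 genes remained. The 3 D319N and 3 Y261A arrays entered a limma fit (version 3.58.1, R 4.3.3, lmFit and eBayes, two-sided, Benjamini-Hochberg over all genes, threshold 0.05), without the vector arrays, whose spread was smaller. Adjusted p-values in the text come from this fit. The number of arrays limits the precision. On simulated data, 13, 34, 47 and 50 of 50 genes changed by 1.2, 1.5, 2 and 4-fold were called, with 10 false calls. Groups, comparison and the 39 lists were chosen with earlier results of these data known. Named were a set of 15 genes, the 15 largest called differences each way, up to 4 called members of a list by p, and genes whose vector mean lay near D319N or between the mutants; a few list members that did not pass were named too, and exceptions are marked. Alternatives changed the samples, scaling, filters, error model and rows. No scan date or batch was given in the sources used here.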

Additional observations from a re-analysis of the deposited data

How the results depend on the processing

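Against 1933 genes (1290 higher and 643 lower in D319N), leaving out 1 array gave 444 to 1956 genes, 302 to 1257 higher and 142 to 699 lower. The fit with all 9 arrays gave 3281 (2224 and 1057), quantile normalisation 3046 with 1369 lower, centred arrays 425 lower, array weights 9094 (3928 and 5166), a raised spread for tied genes 3542 (2077 and 1465), the correlated pair left out 3530 (2018 and 1512) and the test without moderation 852 (531 and 321). With the replicate number as a block, limma called 0 genes, 0 higher, 0 lower and 0 at 2-fold, while 4119 had an unadjusted p under 0.05; the numbers did not pair the arrays, and the block leaves few degrees of freedom. Among single genes, MAPK3 moved to -0.10 after quantile normalisation and to 0.00 without Y261A replicate 2, and SNAI1, at -0.09, to 0.02 with array weights and to -0.15 to 0.02 with 1 array left out. Of the values of named genes under the alternatives, 2131 kept their direction and side of the threshold, 544 lost the call, 2 gained it (RAC1) and 4 reversed. Of 155 named genes that passed, 155 lost the call with the block, 44 without moderation, 21 without the correlated pair, 12 with centred arrays, 9 with a raised spread for tied genes and at most 2 under each remaining alternative that kept all 6 arrays. RMA gave tied values in 10750 genes, 517 of them called, and signals under 4.85 may understate a difference. The cause of these shifts was not tested.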
